A study of Mus musculus with 6 samples.

Results

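Core autophagy machinery genes were examined in subcutaneous Lewis lung carcinoma tumors of mice. The 37 genes were chosen by symbol, as a list of the pathway's components, out of 21899 genes listed in the deposited table. All 37 were in the table, and the 36 whose mean over the 6 samples reached 1 FPKM were tested. The exception was Optn, an autophagy receptor for ubiquitin-tagged cargo, with a mean of 0.918 FPKM. FPKM scales the fragments of a gene by the length of its exons and by the total of the sample.

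Macroautophagy encloses parts of the cytoplasm in a double membrane, the autophagosome, and delivers them to the lysosome for breakdown. The ULK1 kinase complex starts the process, a lipid kinase complex around Beclin 1 marks the new membrane, and conjugation systems related to ubiquitination attach proteins of the ATG8 family (LC3 and GABARAP) to its lipids. Cargo receptors such as p62 bind both the cargo and an ATG8 protein. Tumor cells can use the pathway to survive the oxidative damage of photodynamic therapy, but transcript levels do not measure how much cargo passes through it.

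Male C57BL/6 mice carried LLC-luc tumors, grown from luciferase-expressing LLC cells injected under the skin of the left chest near the armpit, and every sequenced group was irradiated. The Laser group received the light without a photosensitizer and, by the study's methods, saline instead. The PC-La group received phycocyanin (PC), a light-absorbing protein of Spirulina, and selenium-enriched phycocyanin (SePC) was given to the SePC-La group. The labels give light of 620 nm for 10 min, 4 h after an injection repeated every 5 days, while the study's methods describe another wavelength and interval. For the mice these methods state a dose and intensity of the light but no irradiation time. Each group had 2 samples, with no unirradiated tumor and no photosensitizer without light among them. Nothing says beyond the labels that the samples came from separate animals, so the p-values measure the spread between these samples, which may be technical. The tumors were a transplanted line outside the lung, and of 6 markers of normal lung epithelium, Scgb1a1 and Nkx2-1 were at 0 in all 6 samples and Sftpc, Sftpb and Sftpa1 at or near 0. The sixth, Ager, was between 0.679 and 1.37 FPKM and had a mean over 1. Among 8 markers of LLC cells and epithelium, 4 reached a mean of 1 FPKM, with Krt8, Krt18, Cd44 and Vim high and Epcam and Krt7 near 0.

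The FPKM values had been scaled by totals of between 14447792 and 17649489 reads per sample, recovered from the values. SePC-La replicate 1 had the lowest total. It also had the fewest genes above 0, 14547 of those with an exon length, beside 14892 to 15278 in the other samples. The tumors differed in makeup. The summed level of 6 fibroblast markers, all of which reached a mean of 1 FPKM, was 1239 and 283 FPKM with Laser, 1714 and 1562 with PC-La, and 117 and 631 with SePC-La. The sum of 10 neutrophil markers was 165 and 42.5 FPKM with Laser, 159 and 93.3 with PC-La, and 345 and 469 with SePC-La, and 7 of the 10 reached a mean of 1 FPKM. The 5 erythroid markers all did and summed to 127 and 13.6 FPKM with Laser, 263 and 361 with PC-La, and 613 and 932 with SePC-La. Of these 3 lists, the markers listed at 0 were Hba-a2 and Ly6g in Laser replicate 2, Ngp in Laser replicate 1 and Camp in PC-La replicate 1. Skeletal muscle markers summed to 154 FPKM in Laser replicate 2 and to at most 22.0 in any other sample. Across all genes, which are not independent replicates, Laser replicate 1 correlated with Laser replicate 2 at 0.946 on the log2 scale and with the PC-La samples at 0.986 and 0.983.

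Promoter windows from RefSeq (GRCm38.p6) reach from 250 bases before to 50 bases after the start of a gene, and 31 of the 37 genes had at least 1 window. They were searched on both strands for the E-box CACGTG bound by TFEB and related factors, the CRE core TGACGT bound by CREB and ATF factors, and the antioxidant response element TGACNNNGC bound by NRF2. The windows of 3 genes whose transcripts were lower in SePC-La are printed because they hold such matches, which are in capitals.

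Ulk2 (chr11:61855043-61855342, minus strand): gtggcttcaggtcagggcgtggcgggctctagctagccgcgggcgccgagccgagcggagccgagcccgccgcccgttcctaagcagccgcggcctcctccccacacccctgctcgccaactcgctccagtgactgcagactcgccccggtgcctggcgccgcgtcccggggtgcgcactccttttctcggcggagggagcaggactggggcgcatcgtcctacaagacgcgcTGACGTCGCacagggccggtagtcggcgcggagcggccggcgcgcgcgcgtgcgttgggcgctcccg
Atg13 (chr2:91710543-91710842, minus strand): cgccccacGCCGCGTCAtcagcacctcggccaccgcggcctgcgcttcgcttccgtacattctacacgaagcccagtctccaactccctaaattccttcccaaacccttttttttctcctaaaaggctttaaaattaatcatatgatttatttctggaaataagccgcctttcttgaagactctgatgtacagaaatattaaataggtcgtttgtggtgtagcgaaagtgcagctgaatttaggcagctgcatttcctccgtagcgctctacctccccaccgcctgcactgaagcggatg
Nbr1 (chr11:101551857-101552156, plus strand): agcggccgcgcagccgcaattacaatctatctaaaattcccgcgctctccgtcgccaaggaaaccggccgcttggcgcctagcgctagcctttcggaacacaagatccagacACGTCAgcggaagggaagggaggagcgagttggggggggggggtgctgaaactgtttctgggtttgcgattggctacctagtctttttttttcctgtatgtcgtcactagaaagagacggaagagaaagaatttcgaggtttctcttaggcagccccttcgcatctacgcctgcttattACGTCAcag

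In Ulk2 the CRE core and the antioxidant response element overlap, in Atg13 the match is an antioxidant response element on the other strand, and in Nbr1 the CRE core occurs in 2 places, also on the other strand. The CRE core was found in 7 of the 31 genes with a window (Ulk2, Nbr1, Tax1bp1, Atg4a, Atg5, Atg10 and Gabarapl2). Counted by window, it was in 18.9% of the 37 windows of these 31 genes and in 7.5% of all 32851 windows. The antioxidant response element was found in 4 genes (Ulk2, Atg13, Map1lc3b and Tax1bp1), in 10.8% of the 37 windows and in 12.4% of all windows. The E-box was found in Atg3, Atg5, Atg7 and Atg14, in 10.8% of the 37 windows and in 7.2% of all windows. Gabarapl1 and Calcoco1, which were also lower in SePC-La, had no match to any of the 3 motifs. Rb1cc1, lower as well, had no window and could not be searched. The matches describe letters, not bound sites.

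The levels of the genes spanned from about 1 FPKM to over 100. Sqstm1, which encodes the cargo receptor p62, had the highest mean at 141.5 FPKM, followed by Gabarap at 97.3 and Gabarapl1 at 32.6, both ATG8 family genes. The ranges of these 3 genes over the samples did not overlap. Tfeb, a transcription factor that drives lysosome and autophagy genes, was the lowest of the tested genes with a mean of 1.5 FPKM. Among the tested genes, the ratio of the highest to the lowest sample ran from 1.12 for Atg4b, a protease gene, to 2.64 for Calcoco1, a receptor gene. Exon lengths were merged over all annotated transcripts, so the order of the levels also depends on the annotation. Becn1 shares 3104 exonic bases with the opposite-strand gene Cntd1, Atg4d shares 1405 with Kri1, and Sqstm1 shares 580 with Mrnip. The strand setting of the counting is not given in the sources used here, so how reads within the shared bases were assigned cannot be told.

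**Figure D1:**
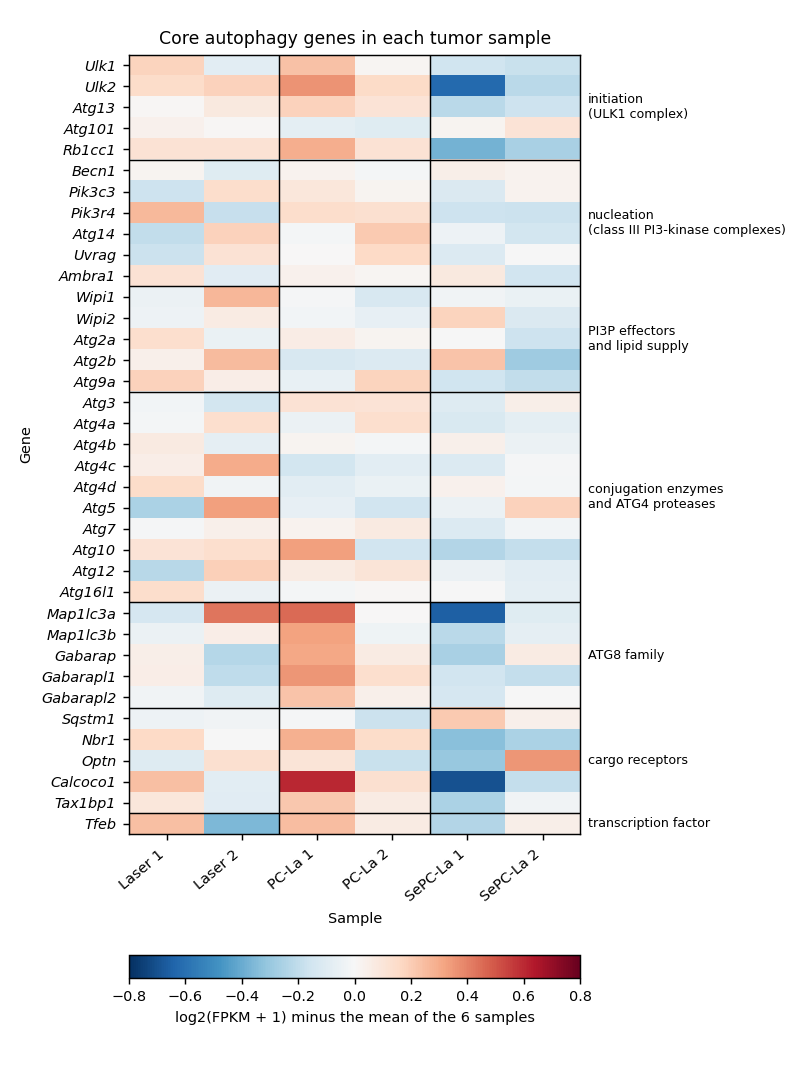
Level of each of the 37 genes in each of the 6 samples, as log2(FPKM + 1) minus the gene's mean over the samples, with genes on the vertical axis grouped by role and samples on the horizontal axis. PC-La replicate 1 was the highest sample for 15 of the 36 tested genes (41.7%, beside 18% of all genes) and SePC-La replicate 1 the lowest for 13 (36.1%, beside 29.7%).

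The genes that passed the test were mostly genes of initiation and cargo recognition, and all of them were lower in SePC-La. Against PC-La, 6 of the 36 tested genes fell in SePC-La at an unadjusted p under 0.05 and none rose: Ulk2, Atg13 and Rb1cc1 of the ULK1 complex, the receptor genes Nbr1 and Calcoco1, and the ATG8 gene Gabarapl1. Of all 10853 genes tested in this comparison, 24.3% had such a p, made up of 14.4% lower and 9.91% higher genes, so the share of 16.7% among the autophagy genes was near that of lower genes in the table. Against Laser, 3 of the 36 fell (Ulk2, Rb1cc1 and Nbr1) and none rose, a share of 8.33% beside 12.1% of all genes, made up of 7.24% lower and 4.9% higher. Between PC-La and Laser, 0 of the 36 passed by limma or by limma's voom method, beside 5.78% of all genes. In bulk tissue, fewer cells that express a gene and less RNA of it per cell cannot be told apart.

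With all 6 samples in the fit and the values as deposited, no gene of the table had a Benjamini-Hochberg adjusted p under 0.05 in limma in any of the 3 comparisons. That count of 0 depended on the Laser libraries. Without Laser replicate 1 it was 312 for PC-La against Laser, 97 for SePC-La against Laser and 639 for SePC-La against PC-La, and without Laser replicate 2 it was 643 for the last, but none of the 36 autophagy genes was among them. The smallest adjusted p among the autophagy genes was 0.753 for PC-La against Laser, 0.376 for SePC-La against Laser and 0.126 for SePC-La against PC-La. At the study's criterion, an absolute log2 fold change over 1 with an unadjusted p under 0.05, there were 0 autophagy genes in each comparison, beside 1.29%, 0.682% and 2.98% of all genes in the same order. Each pair of comparisons shares the samples of a group, so their results are not independent of each other. These counts depended on single libraries. Without PC-La replicate 1, 0 of the 36 had an unadjusted p under 0.05 between SePC-La and PC-La, beside 8.07% of all genes, and without SePC-La replicate 1 there were 3 (Ulk2, Rb1cc1 and Nbr1), beside 11.5%. Without SePC-La replicate 1 there were 0 against Laser, beside 7.63%.

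**Figure D2:**
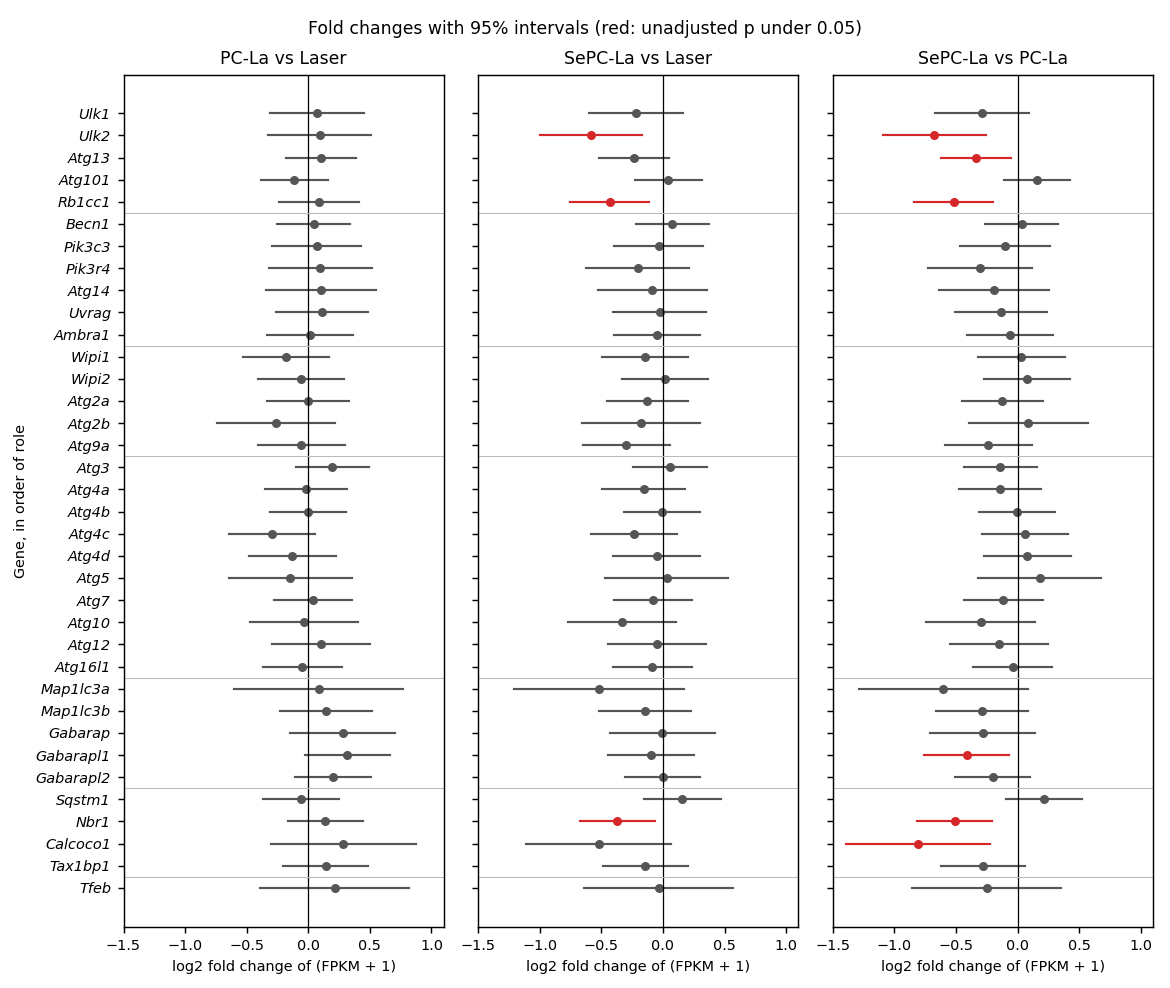
Fold changes of the 36 tested genes on the log2(FPKM + 1) scale in the 3 comparisons (horizontal axes), with 95% intervals from limma as bars, genes in order of role on the vertical axis, and genes with an unadjusted p under 0.05 in red. There are 0 red genes for PC-La against Laser, 3 for SePC-La against Laser and 6 for SePC-La against PC-La, all to the left of 0.

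Initiation genes held 3 of the 6. Ulk2 encodes a kinase related to ULK1 that can take its place in the complex. Its level was 9.84 and 10.1 FPKM with Laser, 11.6 and 9.91 with PC-La, and 5.36 and 7.44 with SePC-La. Both SePC-La samples were below all 4 others, while the Laser and PC-La samples overlapped. The log2 fold change on the log2(FPKM + 1) scale was -0.68 ± 0.17 (SE) between SePC-La and PC-La, with a 95% interval of -1.09 to -0.26, an unadjusted p of 0.00701 and an adjusted p of 0.129 in limma. Against Laser it was -0.58 ± 0.17 (unadjusted p = 0.0135, adjusted p = 0.376), and -0.38 without SePC-La replicate 1, the lower sample.

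Rb1cc1 encodes the scaffold of the complex, also called FIP200. It was at 6.48 and 6.50 FPKM with Laser, 7.45 and 6.48 with PC-La, and 4.33 and 4.78 with SePC-La. Again both SePC-La samples were below the other 4. The log2 fold change was -0.52 ± 0.13 against PC-La (unadjusted p = 0.00722, limma adjusted p = 0.129) and -0.43 ± 0.13 against Laser (unadjusted p = 0.0163, adjusted p = 0.376). Against Laser the unadjusted p was 0.0592 with quantile normalization and 0.0719 without SePC-La replicate 1.

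Atg13 encodes the adaptor that joins the kinase to the scaffold. Its level was 13.2 and 13.9 FPKM with Laser, 15.0 and 14.2 with PC-La, and 11.1 and 11.6 with SePC-La. Here the 3 groups did not overlap, with PC-La on top and SePC-La at the bottom. The fall between SePC-La and PC-La was -0.34 ± 0.12 (unadjusted p = 0.0259, limma adjusted p = 0.165), and it had an unadjusted p of 0.0657 under median-ratio scaling. With quantile normalization and by limma's voom method the fall did not pass either. Its log2 fold change stayed between -0.37 and -0.27 over the alternatives. Ulk1, the kinase that gives the complex its name, had a log2 fold change of -0.29 with a 95% interval of -0.67 to 0.09, so its difference was not resolved. Atg101, a partner of Atg13 that stabilises it, was the member of the complex with a higher level in SePC-La than in PC-La, at 17.9 and 19.1 FPKM against 16.6 and 16.4 (log2 fold change 0.16, interval -0.11 to 0.43). The summed level of the 5 initiation genes was 42.2 and 46.4 FPKM in SePC-La, 55.5 and 51.1 in PC-La, and 52.3 and 52.1 in Laser. Their median log2 fold change was -0.34 between SePC-La and PC-La, -0.24 between SePC-La and Laser, and 0.09 between PC-La and Laser.

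**Figure D3:**
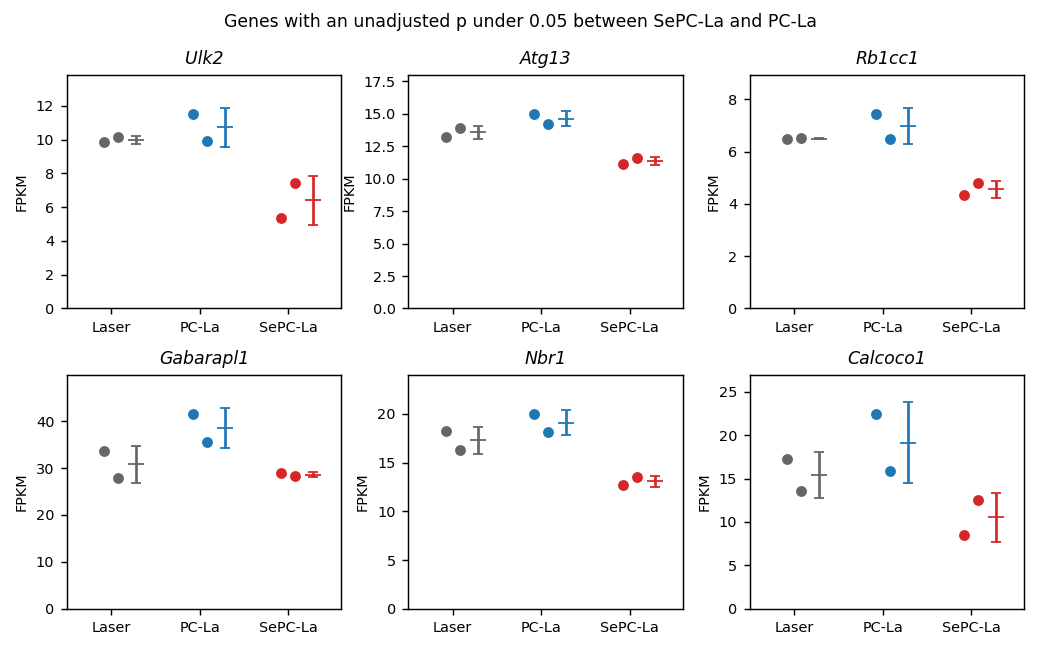
FPKM in each sample (points) with the group mean and SD of n = 2 (bars) for the 6 genes with an unadjusted p under 0.05 between SePC-La and PC-La, with the groups on the horizontal axis. In each panel both SePC-La points are below both PC-La points, and for Ulk2, Atg13, Rb1cc1, Nbr1 and Calcoco1 they are also below both Laser points.

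The nucleation genes encode the lipid kinase VPS34 (Pik3c3), its regulatory subunit (Pik3r4), Beclin 1 and the factors Atg14, Uvrag and Ambra1 that direct or activate the complex. None of the 6 had an unadjusted p under 0.05 in any comparison. Their levels ran from 2.65 FPKM, for Atg14 in Laser replicate 1, to 11.7, for Pik3c3 in Laser replicate 2. Becn1 was at 8.01 and 7.30 FPKM with Laser, 8.04 and 7.77 with PC-La, and 8.18 and 8.04 with SePC-La. The 6 samples were close together, and the log2 fold change between SePC-La and PC-La was 0.03 with a 95% interval of -0.26 to 0.33, to which reads of the overlapping gene may add. Over the 6 genes the log2 fold changes between SePC-La and PC-La ran from -0.30 for Pik3r4 to that of Becn1, with a median of -0.12 beside -0.07 for all genes tested.

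The genes that read the lipid PI3P or bring membrane to the growing autophagosome were Wipi1, Wipi2, Atg2a, Atg2b and Atg9a, which encode lipid-binding adaptors, lipid transfer proteins and a scramblase. None of the 5 passed in any comparison. Their levels ran from 3.38 FPKM, for Atg2b in SePC-La replicate 2, to 18.3, for Wipi1 in Laser replicate 2. Their median log2 fold change was 0.03 between SePC-La and PC-La, -0.15 between SePC-La and Laser, and -0.06 between PC-La and Laser. Atg9a, the scramblase gene, was at 3.63 and 3.52 FPKM in SePC-La, below the other 4 samples.

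The conjugation enzymes and the ATG4 proteases that trim ATG8 proteins gave 0 of 10 in each comparison, with levels from 2.52 FPKM, for Atg4d in PC-La replicate 1, upward to those of Atg5. Atg5 encodes the protein to which ATG12 is joined, and it was at 16.01 and 24.4 FPKM with Laser, 18.4 and 17.2 with PC-La, and 18.6 and 22.0 with SePC-La. The Laser samples spanned all others, and the 95% interval of the difference between SePC-La and PC-La was -0.32 to 0.68. Atg7 encodes the activating enzyme of both conjugation systems. It was at 3.68 and 3.85 FPKM with Laser, 3.81 and 3.96 with PC-La, and 3.38 and 3.65 with SePC-La, so that the SePC-La samples were the lowest by a small margin (-0.11 against PC-La, interval -0.43 to 0.20), and under quantile normalization the difference was 0.05. Over the 10 genes the median log2 fold change was -0.08 between SePC-La and PC-La, beside -0.07 for all genes. Atg10, the enzyme that joins ATG12 to ATG5, had the lowest fold change of the 10, -0.30 (interval -0.74 to 0.14).

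The 5 ATG8 genes were all lower in SePC-La than in PC-La, with no overlap between the samples of these groups. Groups did not overlap in this direction for 39.5% of all genes tested, and for 23 of the 36 autophagy genes. Gabarapl1 was the one that passed, at 33.6 and 27.98 FPKM with Laser, 41.6 and 35.5 with PC-La, and 29.0 and 28.2 with SePC-La. PC-La stood above the other groups, while Laser spanned SePC-La at its lower end. The log2 fold change between SePC-La and PC-La was -0.41 ± 0.14 (unadjusted p = 0.0258, limma adjusted p = 0.165), and it had an unadjusted p of 0.0541 by limma's voom method on the recovered reads.

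Gabarap was at 99.7 and 82.1 FPKM with Laser, 120 and 100.99 with PC-La, and 80.2 and 100.95 with SePC-La. Gabarapl2 was at 20.9 and 19.8 FPKM with Laser, 25.2 and 22.0 with PC-La, and 19.4 and 21.3 with SePC-La. For each of these genes both PC-La samples were the highest of the 6, and the Laser and SePC-La samples overlapped. The LC3 genes varied more within groups. Map1lc3a was at 18.6 and 27.97 FPKM with Laser, 28.6 and 20.7 with PC-La, and 12.7 and 19.2 with SePC-La, and Map1lc3b was at 18.3 and 19.7, 24.0 and 18.5, and 16.2 and 18.0. Their log2 fold changes between SePC-La and PC-La were -0.60 (95% interval -1.29 to 0.08) and -0.29 (interval -0.66 to 0.08).

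In PC-La against Laser, the log2 fold change was above 0 for 5 of 5 ATG8 genes, with a median of 0.20 beside -0.0006 for all genes, and the groups did not overlap for Gabarap, Gabarapl1 and Gabarapl2. Over the 36 genes, 5 were higher in PC-La without overlap and 4 lower, beside 20.4% and 21.6% of all genes. None of the 5 ATG8 genes had an unadjusted p under 0.05 here, and Gabarapl1 came nearest with 0.32 (unadjusted p = 0.0662, limma adjusted p = 0.753). Without Laser replicate 1, it was one of 3 genes that passed, with Atg4c and Atg5 lower, beside 24.9% of all genes. In SePC-La against Laser, the 5 ATG8 genes had a median log2 fold change of -0.10, and none passed. Map1lc3a had the lowest value, -0.52, with Map1lc3b at -0.15 and Gabarapl1 at -0.10. Gabarap and Gabarapl2 were at -0.0069 and -0.0026 there, and above 0 with median-ratio scaling. ATG8 genes are related in sequence, and how reads that fit several of them were counted is not given in the sources used here.

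**Figure D4:**
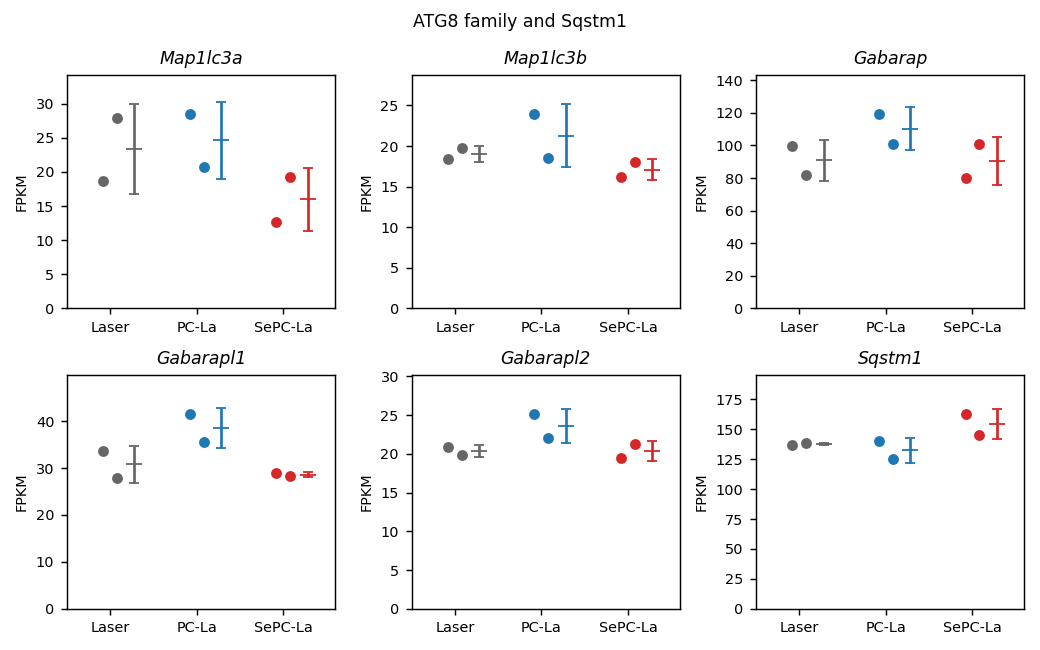
FPKM in each sample (points) with the group mean and SD of n = 2 (bars) for the 5 ATG8 genes and Sqstm1, with the groups on the horizontal axis. The PC-La points are above both SePC-La points in each ATG8 panel, and in the Sqstm1 panel the SePC-La points, 163 and 145 FPKM, are above the other 4.

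The cargo receptors did not move as one group, and the 4 that were tested had log2 fold changes between SePC-La and PC-La from -0.81 to 0.22. Nbr1 encodes a receptor for ubiquitin-tagged cargo that works with p62. It was at 18.3 and 16.3 FPKM with Laser, 20.0 and 18.2 with PC-La, and 12.7 and 13.5 with SePC-La. Both SePC-La samples were below the other 4, and Nbr1 had the smallest p of all the autophagy genes. Its log2 fold change was -0.51 ± 0.13 against PC-La (unadjusted p = 0.00595, limma adjusted p = 0.126) and -0.37 ± 0.13 against Laser (unadjusted p = 0.0238, adjusted p = 0.382). Without Laser replicate 1 the difference from Laser was -0.29 with an unadjusted p of 0.0847.

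Calcoco1 encodes a receptor for parts of the endoplasmic reticulum. It was at 17.3 and 13.6 FPKM with Laser, 22.5 and 15.8 with PC-La, and 8.50 and 12.6 with SePC-La, where both samples were the lowest of the 6. The log2 fold change against PC-La was -0.81 ± 0.24, with a 95% interval of -1.40 to -0.22, an unadjusted p of 0.0146 and an adjusted p of 0.144 in limma. It was the lowest among the 36 genes. Without PC-La replicate 1 it was -0.57 (unadjusted p = 0.0911) and without SePC-La replicate 1 it was -0.55 (unadjusted p = 0.0895).

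Sqstm1 was at 137 and 139 FPKM with Laser, 140 and 125 with PC-La, and 163 and 145 with SePC-La. Both SePC-La samples were above the other 4, but the difference from PC-La, 0.22, had a 95% interval of -0.09 to 0.53 and an unadjusted p of 0.141. Tax1bp1, a receptor gene related to Calcoco1, had a fold change of -0.28 (interval -0.62 to 0.06). Optn was between 0.535 and 1.42 FPKM, and both of these values came from SePC-La samples. The 5 receptor genes summed to between 189 and 216 FPKM in each of the samples, with Sqstm1 the main part.

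Tfeb was at 1.92 and 0.929 FPKM with Laser, 1.93 and 1.59 with PC-La, and 1.1 and 1.56 with SePC-La. The Laser samples spanned nearly the whole range, and the difference between SePC-La and PC-La was -0.25 with an interval of -0.85 to 0.35.

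Over all 36 genes, the median log2 fold change was 0.07 between PC-La and Laser, beside -0.0006 for all genes tested, -0.09 between SePC-La and Laser, beside -0.06, and -0.15 between SePC-La and PC-La, beside -0.07. In SePC-La against PC-La, 27 of the 36 were below 0, a share of 75.0% beside 58.5% of all genes, and there were 24 with median-ratio scaling and 23 with quantile normalization. In SePC-La against Laser, 30 were below 0 as deposited, a share of 83.3% beside 59.8% of all genes. There were 22 with median-ratio scaling and 19 with quantile normalization. Under these scalings the median over all genes was -0.0066 and -0.0098 for SePC-La against Laser. For SePC-La against PC-La it was -0.0089 and 0.0096, in the same order. Groups did not overlap for 12 lower and 2 higher genes in SePC-La against Laser, beside 25.6% and 15% of all genes, and for 23 lower and 5 higher in SePC-La against PC-La, beside 39.5% and 26%.

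A pair of libraries stood at the ends of many genes. For 11 of the 36 genes, SePC-La replicate 1 was the lowest and PC-La replicate 1 the highest of the 6 samples, as it was for 10.3% of all genes tested. These were Ulk2, Atg13 and Rb1cc1, the receptor genes Nbr1, Calcoco1 and Tax1bp1, the ATG8 genes Map1lc3a, Map1lc3b, Gabarap and Gabarapl2, and Atg10. The summed fibroblast markers had the same lowest and highest sample, at 117 and 1714 FPKM. Col3a1, Dcn, Lum and Pdgfra had this pattern, but Col1a1 and Col1a2 were lowest in Laser replicate 2 and highest in SePC-La replicate 2. The pattern was not particular to fibroblast markers. Summed T and NK cell markers were also lowest in SePC-La replicate 1 and highest in PC-La replicate 1, at 19.2 and 63.9 FPKM. Of these markers, Cd8a, Gzma, Gzmb and Ncr1 had the pattern, and Cd3e, Cd3g, Cd4 and Nkg7 did not. The neutrophil and erythroid sums were higher in both SePC-La samples than in the other 4. Each erythroid marker was so too, but the neutrophil markers Mmp8, Mmp9, Ly6g and Ngp were not. The part of these cell types in the falls of the autophagy genes was not tested.

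Genes around the core machinery were taken from lists of 89 genes, of which 81 were tested. In PC-La against Laser, 0 were higher and 2 lower at an unadjusted p under 0.05, in SePC-La against Laser 4 higher and 6 lower, and in SePC-La against PC-La 5 higher and 14 lower, shares of 2.47%, 12.3% and 23.5% beside 5.78%, 12.1% and 24.3% of all genes. The gene with the smallest p of each list is described here. The highest fold change belonged to Bnip3, a receptor gene for the removal of mitochondria that hypoxia induces. It was at 19.9 and 18.7 FPKM with Laser, 20.7 and 14.4 with PC-La, and 38.6 and 32.5 with SePC-La, well apart from the other 4 samples. It rose by 1.00 ± 0.19 on the log2 scale against PC-La (unadjusted p = 0.00153, limma adjusted p = 0.126) and by 0.85 against Laser (unadjusted p = 0.00359, adjusted p = 0.376).

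Ddit4, an inhibitor of the nutrient-sensing kinase mTORC1, was at 31.1 and 36.9 FPKM with Laser, 33.7 and 29.4 with PC-La, and 48.4 and 60.2 with SePC-La. Atf4, a transcription factor of the integrated stress response, was at 114 and 112 FPKM with Laser, 90.2 and 122 with PC-La, and 201 and 170 with SePC-La. In both genes the SePC-La samples were the highest, with rises of 0.76 and 0.81 against PC-La (unadjusted p = 0.00295 and 0.00339, limma adjusted p = 0.126 for both) and of 0.66 and 0.70 against Laser (unadjusted p = 0.00601 and 0.00677, adjusted p = 0.376 for both).

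Lamp2, a lysosome membrane protein gene needed for autophagosome clearance, was at 35.6 and 36.2 FPKM with Laser, 43.4 and 43.5 with PC-La, and 23.5 and 30.4 with SePC-La. It fell in SePC-La by 0.68 ± 0.15 on the log2 scale against PC-La (unadjusted p = 0.00301, limma adjusted p = 0.126) and by 0.41 against Laser (unadjusted p = 0.0292, adjusted p = 0.385). Wdfy3, a large scaffold for the clearance of protein aggregates, had a level of 5.84 and 5.03 FPKM with Laser, 4.78 and 5.16 with PC-La, and 3.52 in both SePC-La samples, below the other groups. Its log2 fold change was -0.40 against PC-La and -0.51 against Laser (unadjusted p = 0.0235 and 0.00859, limma adjusted p = 0.162 and 0.376). Stx17, the SNARE of the autophagosome that fuses with the lysosome, fell by 0.58 against PC-La (unadjusted p = 0.0289, adjusted p = 0.171).

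Between PC-La and Laser, Fnip2, a partner of the lysosomal regulator folliculin, and Ncoa4, the receptor for ferritin, fell by 0.41 and 0.45 on the log2 scale (unadjusted p = 0.0286 and 0.0328, limma adjusted p = 0.753 for both). Among the 81 genes, 2 met the study's criterion, both lower in SePC-La than in PC-La, a share of 2.47% beside 2.98% of all genes, and they are named because of their values. Sesn3, a stress-induced regulator of mTORC1, was at 1.77 and 0.119 FPKM with Laser, 2.05 and 2.38 with PC-La, and 0.195 and 0.574 with SePC-La (log2 fold change -1.23, unadjusted p = 0.027, limma adjusted p = 0.168). Scarb2, a lysosome membrane receptor, was at 42.6 and 19.9 FPKM with Laser, 58.4 and 49.1 with PC-La, and 11.8 and 24.0 with SePC-La (-1.61, unadjusted p = 0.0139, adjusted p = 0.143). The Laser samples of both genes were far apart.

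**Figure D5:**
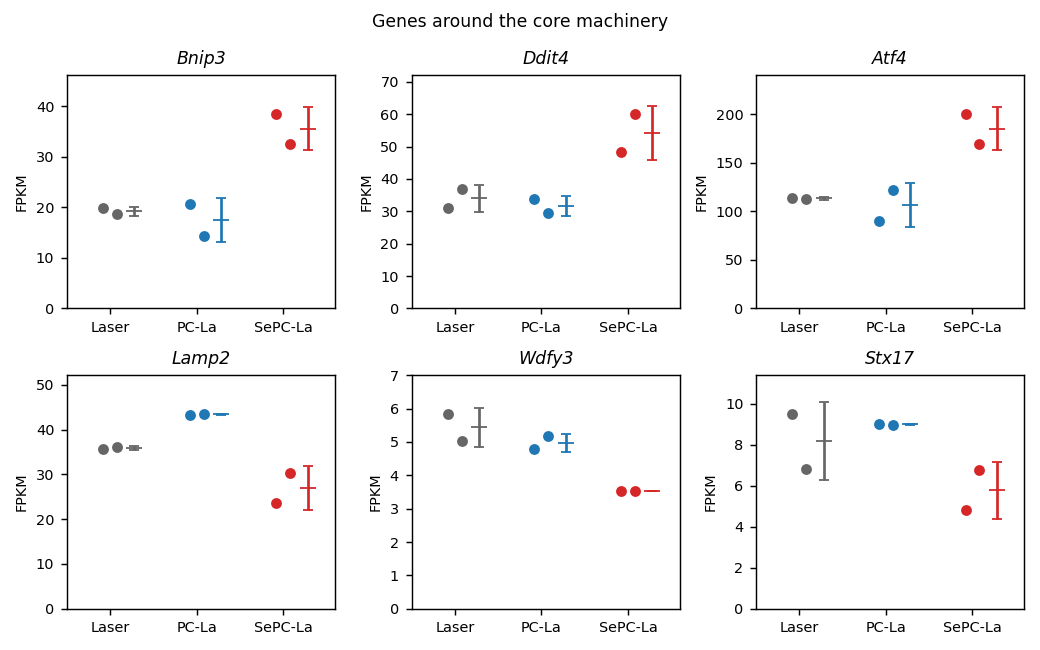
FPKM in each sample (points) with the group mean and SD of n = 2 (bars) for 6 genes around the core machinery, with the groups on the horizontal axis. SePC-La points are above the other 4 for Bnip3, Ddit4 and Atf4, and below the other 4 for Lamp2, Wdfy3 and Stx17. For Stx17, SePC-La replicate 2 is only just below Laser replicate 2, at 6.77 against 6.83 FPKM.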

How the data were processed

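RNA of tumor tissue was sequenced in 6 samples, 2 per group. The authors deposited 1 table of FPKM values for all samples. The submitters' processing notes for the authors' files list HISAT2 2.0.5, HTSeq 0.9.1, DESeq 1.30.0 and the build mm9, with no role for each. The annotation and the strand setting are not given in the sources used here, and the values themselves show the unit. Multiplied by merged exon lengths of GENCODE M21 (GRCm38), they gave whole reads in all 6 samples for 97.8% of the expressed genes, within 0.02 reads. The number of reads limits the precision of low genes.

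Values were used as deposited. The 10853 genes whose mean reached 1 FPKM were tested two-sided on log2(FPKM + 1) with limma (version 3.58.1, R version 4.3.3). This scale understates the changes of low genes. One fit held all 6 samples, with a mean per group and empirical Bayes moderation with trend and robust estimation (a median of 6.4 degrees of freedom, 3.4 of them from the prior). limma stood in for the authors' DESeq because the table holds no counts. P-values were adjusted by Benjamini-Hochberg over all genes tested. Values in each sample were given for the genes with an unadjusted p under 0.05, the ATG8 family, Becn1, Sqstm1, Atg5, Atg7, Tfeb and the 3 genes with the highest mean, and of each list around the pathway the gene with the smallest p was named. The genes and lists were chosen with earlier results of these data known. Alternatives were scaling by median ratios or by quantiles, a pseudocount of 0.1, no filter or one at a mean of 5 FPKM, a fit without the trend or with a replicate block, only the 4 samples compared, and each sample of a comparison left out. The voom method on recovered reads and the omission of each Laser sample from the fit for SePC-La against PC-La were added after seeing the data. Scripts were tested on simulated data. Plots were drawn with matplotlib 3.10.9 and tables were read with pandas 2.3.3, NumPy 2.4.6 and Python 3.11.15.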

Additional observations from a re-analysis of the deposited data

Results flagged for a closer look

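Atg13 and Lamp2 had both PC-La samples above and both SePC-La samples below both Laser samples, so that the groups with a photosensitizer stood on opposite sides of Laser. The pattern was not particular to them: it held for 4.51% of all genes tested, and for 1 of the 36 autophagy genes and 5 of the 81 tested genes around the pathway (also Sec62, Vps18, Vps41 and Tmem41b, which were not described in each sample). The reverse pattern held for 4.05% of all genes, for 0 of the 36 and for 2 of the 81, Cd63 and Prkab1. For Atg13 the log2 fold change was 0.10 for PC-La and -0.24 for SePC-La against Laser, and -0.34 between SePC-La and PC-La (unadjusted p = 0.0259, limma adjusted p = 0.165). For Lamp2 these values were 0.27, -0.41 and -0.68 (unadjusted p = 0.00301, limma adjusted p = 0.126 for the last). The last value of each gene is the test of the difference between the groups. The difference between PC-La and Laser had an unadjusted p of 0.416 for Atg13 and 0.113 for Lamp2. No group had enough samples to look for a sample far from the others.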

How the results depend on the processing

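With 2 samples per group, a left-out sample leaves 1 in its group, which is then assumed to vary like the other groups. Over the samples left out, the number of autophagy genes with an unadjusted p under 0.05 in limma changed in each of the 3 comparisons. The share of all genes with such a p changed too. At the study's criterion, Calcoco1 passed between SePC-La and PC-La without PC-La replicate 2 and without SePC-La replicate 2, a range from 0 to 1. The voom method gave 4 genes for SePC-La against PC-La, beside 23.4% of all genes. The replicate block left the counts at 0, 3 and 6, beside 4.16%, 8.64% and 18.7% of all genes. The deviations of equally numbered samples correlated at 0.09, -0.43 and -0.18 between the groups. Each group gives a single such deviation per gene, so whether the replicate numbers mark a pairing cannot be told. The direction held in every alternative for 14, 16 and 29 of the 36 genes in the 3 comparisons. None of the 36 genes had an adjusted p under 0.05 in any alternative. With only the 4 samples compared, 637 genes of the table had an adjusted p under 0.05 between SePC-La and PC-La, beside 8 with quantile normalization and 3 at a minimum mean of 5 FPKM, and the smallest adjusted p among the autophagy genes given in each sample was 0.0561. Some small differences turned. With quantile normalization Atg7 was at -0.007 (PC-La against Laser), 0.0468 (SePC-La against Laser) and 0.0538 (SePC-La against PC-La). In SePC-La against Laser, Gabarap was at 0.0608 with median-ratio scaling and 0.0611 by voom, Gabarapl2 at 0.0626, 0.0102 and 0.0682 and Tfeb at 0.0044, 0.0598 and 0.0791 with median-ratio scaling, quantile normalization and voom. Over the samples left out, PC-La against Laser ranged from -0.196 to 0.365 for Map1lc3a, -0.0158 to 0.102 for Becn1, -0.437 to 0.142 for Atg5, -0.0832 to 0.514 for Tfeb, -0.0103 to 0.192 for Ulk2, -0.0017 to 0.174 for Rb1cc1, -0.0361 to 0.32 for Map1lc3b and -0.137 to 0.0215 for Sqstm1. SePC-La against Laser ranged from -0.258 to 0.322 for Atg5, -0.171 to 0.157 for Gabarap, -0.224 to 0.03 for Gabarapl1, -0.0668 to 0.0616 for Gabarapl2 and -0.334 to 0.264 for Tfeb. The cause of these turns was not tested.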
